A study of Mus musculus with 2 samples.

Results

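Luminal progenitor-like nuclei were taken from mouse mammary gland organoids profiled by single-cell ATAC-seq, in which a transposase cuts accessible DNA and the cuts are counted nucleus by nucleus. Members were chosen by their measured accessibility at 5 marker genes, Kit, Elf5, Csn3, Aldh1a3 and Wfdc18. Nuclei with at least 20000 counts were kept, and the counts in peaks on the bodies of the marker genes and 2 kb upstream were divided by the total of the nucleus. The result was divided by the mean over all kept nuclei of both libraries, so that a score of 1 is that of the average nucleus. Members had a luminal progenitor score at least 1.2 times both the hormone-sensing luminal score (Esr1, Pgr, Prlr, Cited1, Foxa1, Tnfsf11) and the basal score (Krt14, Krt17, Trp63, Myh11, Oxtr, Mylk), with an immune score (Ptprc, Tyrobp, Csf1r, C1qa, C1qb, Adgre1) below 1.25. Of 6175 nuclei in the series 5509 were kept, and 1226 of these were members, 358 in the doxycycline library (DOX) and 868 in the ethanol library (EtOH).

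All organoids came from C57BL/6J mice of the genotype shTRPS1.34 ki/+; CAG-rtTA3 tg/+, so both groups carried the cassette for the shRNA against Trps1, inserted in the Col1a1 locus, and the rtTA3 transactivator driven by the ubiquitous CAG promoter. They were grown in Matrigel in a medium with Neuregulin, Noggin and R-spondin and kept for 7 days with doxycycline at 0.1 µg/ml, which switches on the shRNA, or with ethanol, its solvent. The cells of several mice were mixed, and 1 library was made per group. No value could therefore be set against a spread between replicates, and the effects of doxycycline, of the shRNA and of the library cannot be told apart. All intervals, given in brackets, are 95% intervals that cover counting error only.

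Luminal progenitors are the proliferative cells of the inner layer of the mammary duct. They carry the receptor tyrosine kinase Kit, depend on the ETS factor Elf5 for the step to milk-secreting alveolar cells, and respond little to ovarian hormones themselves. Hormone-sensing luminal cells carry the oestrogen and progesterone receptors and signal to the progenitors, while basal cells form the contractile outer layer. TRPS1, the target of the shRNA, is a repressor that can bind the same GATA sequence as GATA3, the factor on which luminal cells depend. The study found C2H2 zinc finger motifs enriched at TRPS1 sites of sorted luminal cells. It proposes that TRPS1 acts there more through those fingers than through its GATA domain. For the organoids used here, the study reported GATA motifs as more accessible with doxycycline in each of its clusters. Across its differential peaks it reported higher accessibility of ETS motifs and lower accessibility of SOX motifs. Those results rest on its own clusters, peaks and motif measure, which differ from those used below.

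The sequences below are taken from the GRCm38 genome. The first set, shown because these regions lay at the ends of the comparison of the libraries, holds the central 300 bases, on the plus strand, of the 3 regions with the highest and the 3 regions with the lowest ratio of DOX over EtOH in the class, among regions with at least 200 counts. Capitals mark the GATA motif, AGATAA or its complement TTATCT, which lay in the central 300 bases of 13.2% of all 174940 regions shared by the libraries. The first 3 regions were higher in DOX and the last 3 were lower.
Region nearest 1810046K07Rik, chr9:51542025-51542324: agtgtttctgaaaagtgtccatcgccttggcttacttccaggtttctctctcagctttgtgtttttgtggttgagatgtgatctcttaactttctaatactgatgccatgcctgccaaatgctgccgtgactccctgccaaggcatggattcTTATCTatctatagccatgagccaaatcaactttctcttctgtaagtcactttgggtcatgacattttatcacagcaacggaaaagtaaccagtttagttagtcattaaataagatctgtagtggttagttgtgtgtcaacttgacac
Region nearest Ly6l, chr15:75392156-75392455: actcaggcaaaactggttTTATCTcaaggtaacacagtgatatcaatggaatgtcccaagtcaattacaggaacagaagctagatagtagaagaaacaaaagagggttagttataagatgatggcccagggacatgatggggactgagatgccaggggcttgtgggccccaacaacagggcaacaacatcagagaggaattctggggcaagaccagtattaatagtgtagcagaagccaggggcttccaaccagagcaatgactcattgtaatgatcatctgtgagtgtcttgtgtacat
Region nearest St3gal1, chr15:67226691-67226990: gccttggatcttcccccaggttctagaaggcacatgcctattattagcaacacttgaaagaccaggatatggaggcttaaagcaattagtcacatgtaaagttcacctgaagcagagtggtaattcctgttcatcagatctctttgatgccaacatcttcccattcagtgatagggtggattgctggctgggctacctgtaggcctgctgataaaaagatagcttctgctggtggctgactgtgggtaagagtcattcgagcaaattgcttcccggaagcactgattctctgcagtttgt
Region in an intron of Sh3kbp1, chrX:159926123-159926422: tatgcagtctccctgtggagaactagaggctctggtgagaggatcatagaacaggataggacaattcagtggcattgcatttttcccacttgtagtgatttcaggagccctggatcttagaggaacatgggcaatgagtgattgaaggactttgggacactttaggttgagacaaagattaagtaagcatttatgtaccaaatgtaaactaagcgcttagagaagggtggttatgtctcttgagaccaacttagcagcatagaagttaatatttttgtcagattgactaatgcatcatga
Region over an exon of Vps13d, chr4:145144017-145144316: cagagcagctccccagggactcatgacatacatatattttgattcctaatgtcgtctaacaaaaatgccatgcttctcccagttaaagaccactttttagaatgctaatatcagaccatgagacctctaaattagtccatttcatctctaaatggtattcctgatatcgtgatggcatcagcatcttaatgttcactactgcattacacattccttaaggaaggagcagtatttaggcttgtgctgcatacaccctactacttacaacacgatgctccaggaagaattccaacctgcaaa
Region nearest Tmc1, chr19:21035262-21035561: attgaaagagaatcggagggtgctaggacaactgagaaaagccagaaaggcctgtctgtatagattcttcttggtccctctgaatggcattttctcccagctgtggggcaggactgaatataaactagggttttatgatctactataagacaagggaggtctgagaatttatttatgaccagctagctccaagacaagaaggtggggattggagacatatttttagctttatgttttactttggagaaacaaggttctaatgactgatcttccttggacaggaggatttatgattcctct

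The second set, shown because these genes chose the members, holds bases upstream of the gene start for those marker genes of the class that the RefSeq promoter table (GRCm38.p6) covers, which was 3 of 5. Of up to 250 bases those before any annotated UTR are shown, in the direction of the gene, which is the plus strand for all 3. Capitals mark AGGAAG or its complement CTTCCT, the core of sites bound by ELF5 and other ETS factors, found in the 250 bases upstream of the start in 29.5% of 32815 promoters. None of the 3 stretches held AGATAA or TTATCT, which 9.99% of the promoters did.
Kit, chr5:75574737-75574915: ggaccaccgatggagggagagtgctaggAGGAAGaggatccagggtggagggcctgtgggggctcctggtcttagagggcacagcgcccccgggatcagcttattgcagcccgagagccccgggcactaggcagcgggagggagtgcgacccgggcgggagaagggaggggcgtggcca
Elf5, chr2:103423818-103424061: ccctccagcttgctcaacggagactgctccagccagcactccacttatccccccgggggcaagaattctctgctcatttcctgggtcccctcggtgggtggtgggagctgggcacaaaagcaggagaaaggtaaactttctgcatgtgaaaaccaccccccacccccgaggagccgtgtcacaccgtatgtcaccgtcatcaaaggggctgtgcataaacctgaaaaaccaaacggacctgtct
Wfdc18, chr11:83708754-83709003: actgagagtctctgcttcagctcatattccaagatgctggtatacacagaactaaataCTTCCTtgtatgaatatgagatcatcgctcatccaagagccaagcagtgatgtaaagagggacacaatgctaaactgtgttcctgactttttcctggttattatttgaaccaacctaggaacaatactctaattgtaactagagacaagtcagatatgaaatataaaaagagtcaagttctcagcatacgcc

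The scores that chose the members differed between the libraries mainly in the hormone-sensing score and the lead. The median luminal progenitor score was 1.89 in DOX and 1.996 in EtOH, from a median of 17 counts per nucleus on the 5 genes in each. The median hormone-sensing score was 0.90 and 0.75, the median basal score 1.08 and 1.02, and the median immune score 0.13 and 0.11. Basal was the second score in 248 of 358 DOX members and in 634 of 868 EtOH members. The luminal progenitor score was 1.55 times the second score in the median DOX member and 1.80 times in the median EtOH member. Just inside the limit, at leads from 1.2 to 1.3, there were 68 DOX and 107 EtOH nuclei with median luminal progenitor scores of 1.64 and 1.55. Just outside it, from 1.1 to 1.2, there were 68 and 91 nuclei with scores of 1.57 and 1.45. A further 311 DOX and 73 EtOH nuclei led in the luminal progenitor score but were at or above the immune limit. The median depth of a member was 78440.5 counts in DOX and 71352.5 in EtOH, and the class held 28031484 and 61076956 counts in shared regions. The libraries had 23 cell barcodes in common, and 5 members of each carried one of them, but no barcode was in the class in both.

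The class made up 13.1% of the kept nuclei in DOX (11.9 to 14.4%, Clopper-Pearson) and 31.3% in EtOH (29.5 to 33.0%). Below the immune limit, where 1530 DOX and 2521 EtOH nuclei remained, it made up 23.4% (21.3 to 25.6%) and 34.4% (32.6 to 36.3%). The same rule with the lists exchanged gave 251 hormone-sensing luminal-like nuclei in DOX and 817 in EtOH, and 431 and 332 basal-like nuclei, while 490 and 504 nuclei had no leading epithelial score. These shares come from the values that define the class and were not tested. In the plot of class shares the luminal progenitor-like bar was lower in DOX on both denominators.

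**Figure D1:**
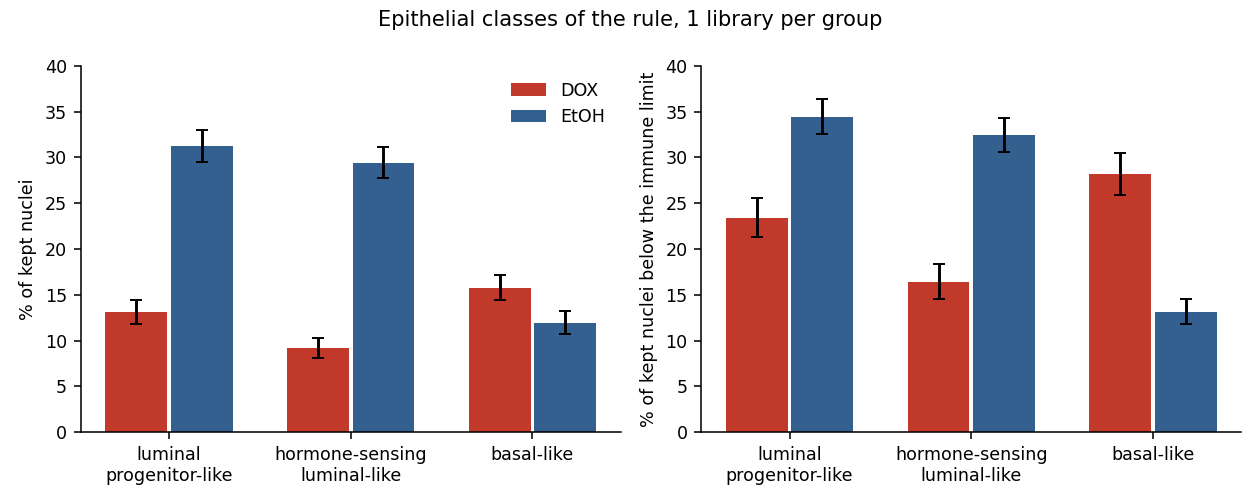
Shares of the 3 epithelial classes in the DOX (red) and EtOH (blue) library, as % of all kept nuclei (left) and of those below the immune limit (right). Bars are shares with 95% Clopper-Pearson intervals, and luminal progenitor-like nuclei made up 13.1% (DOX) and 31.3% (EtOH) on the left and 23.4% and 34.4% on the right.

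The members of the libraries did not share a place among all nuclei. In a joint clustering of the kept nuclei, 824 of the 868 EtOH members (94.9%) lay in a cluster of 1433 EtOH and 43 DOX nuclei, of which 22 DOX nuclei were members. In DOX 325 of the 358 members (90.8%) lay in another cluster, with 1195 DOX and 15 EtOH nuclei. Members made up 57.5% of the EtOH nuclei of the first cluster and 27.2% of the DOX nuclei of the second. The DOX cluster also held 343 basal-like, 102 hormone-sensing luminal-like and 419 undecided DOX nuclei. Of the 332 EtOH basal-like nuclei 210 lay in the same cluster as the EtOH members. Among the 15 nearest neighbours of a member, 29.8% on average were members of either library for DOX and 61.0% for EtOH. Of these neighbours 93.5% and 98.5% came from its own library, where 13.1% of kept nuclei were members in DOX and 31.3% in EtOH. Over both libraries 22.3% of kept nuclei were members.

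The label was next set against genes that the rule did not use. Leaving each marker out of the rule in turn gave a class whose level of that gene was not chosen, stated here in counts per 1000000 counts of the class in shared regions (CPM). Wfdc18, which encodes a small secreted protein of the WAP family, stood at 36.9 CPM in the DOX class (33.5 to 40.3), at 17.9 in DOX hormone-sensing luminal-like nuclei and at 24.7 in DOX basal-like nuclei. In EtOH it stood at 39.3 (37.0 to 41.7), 5.47 and 28.7 CPM. Csn3, the gene of kappa-casein, showed the same order with 35.2 CPM in the DOX class (32.1 to 38.6), 15.2 in the hormone-sensing and 27.9 in the basal-like nuclei, against 45.4 (42.9 to 47.9), 8.28 and 35.9 CPM in EtOH. Both genes were thus higher in the class than in the other 2 in each library, and closer to the basal-like than to the hormone-sensing level.

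Kit separated the EtOH classes more than the DOX classes. Its level was 37.2 CPM in the EtOH class (34.9 to 39.5), 9.21 in hormone-sensing luminal-like and 27.4 in basal-like nuclei. In DOX the levels were 20.5 (18.3 to 23.0), 13.5 and 16.5 CPM. The log2 ratio of the class over hormone-sensing luminal-like nuclei was 2.01 in EtOH (1.82 to 2.20) and 0.60 in DOX (0.31 to 0.90). Elf5 did not separate the classes in either library, with 38.9, 40.7 and 35.3 CPM in the DOX and 44.3, 42.2 and 42.4 CPM in the EtOH luminal progenitor-like, hormone-sensing luminal-like and basal-like nuclei. Its log2 ratio of the class over the hormone-sensing class was -0.06 in DOX (-0.24 to 0.11) and 0.07 in EtOH (-0.04 to 0.18). Aldh1a3, the gene of a retinaldehyde dehydrogenase, gave 0.09 in DOX (-0.11 to 0.29) and 0.33 in EtOH (0.21 to 0.45).

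**Figure D2:**
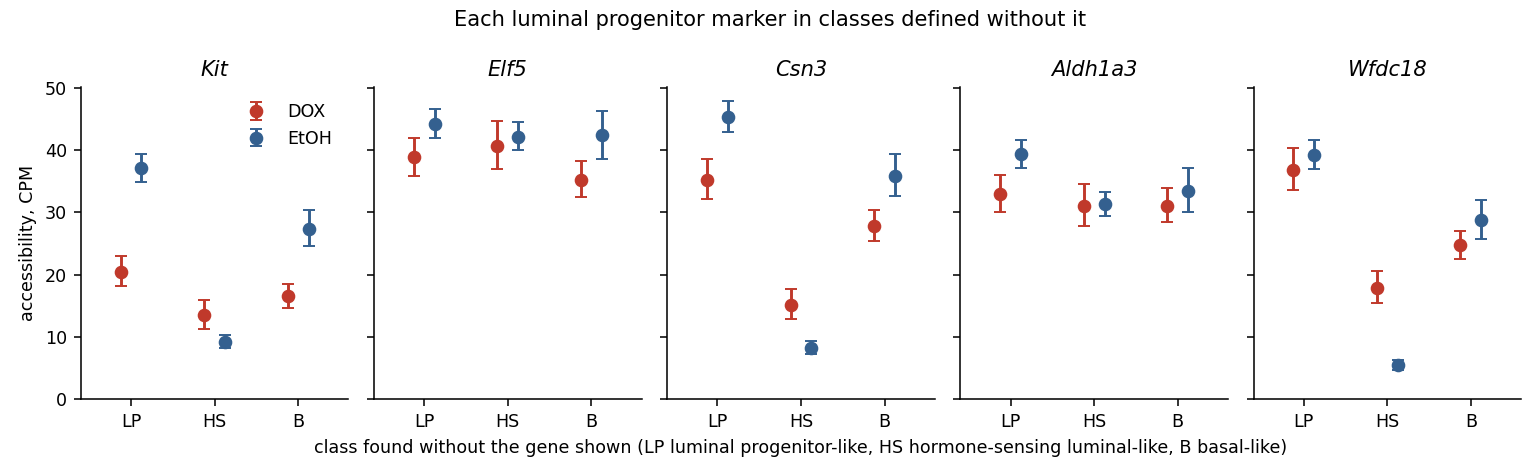
Accessibility in CPM (y axis, from 0) of each marker gene in the 3 epithelial classes found without that gene, for DOX (red) and EtOH (blue). Points are sums over the nuclei of a class with exact Poisson 95% intervals, and Kit in the luminal progenitor-like class stood at 20.5 CPM in DOX and 37.2 CPM in EtOH.

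Of 16 further luminal progenitor genes, none was at least 1.5-fold higher in the DOX class than in the hormone-sensing and basal-like nuclei together (0.68% of 17211 genes were). The pooled nuclei held 20739975 hormone-sensing and 34131419 basal-like counts in DOX, but 62565450 and 21758655 in EtOH. Ratios over the pool therefore rest on a different mix in each library, and the part of this mix was not tested. In EtOH 3 were higher (background 5.97%) and 1 was lower (7.63%). The higher ones were Sox10, a neural crest and progenitor factor (1.64 in EtOH, 0.57 in DOX), Lcn2, the gene of the siderophore-binding lipocalin (1.43 and 0.22), and Bcl11a, a zinc finger factor (0.78 and 0.01). The lower one was Ltf, the gene of lactoferrin, at -0.98 in EtOH and 0.23 in DOX. The list median of the log2 ratio was 0.30 in EtOH and 0.16 in DOX, where all genes had medians of 0.08 and 0.02.

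Of the 12 milk genes with enough counts, 6 were at least 1.5-fold higher in the EtOH class (background 5.97%) and 3 in the DOX class (0.68%). Against basal-like nuclei alone 3 of 12 were higher in EtOH (1.13%) and 1 of 11 in DOX (0.389%). Against the other nuclei of the same cluster 0 of 12 were higher in either library, with list medians of 0.01 in EtOH and 0.15 in DOX. Of all genes 51 of 17204 were higher there in EtOH and 45 of 17237 in DOX, with medians of 0.01 and 0.006. Lalba (chromosome 15, 98480400 to 98482721), the gene of alpha-lactalbumin, had a log2 ratio of the class over the other epithelial classes of 2.09 in EtOH and 0.87 in DOX. For Wap, the gene of whey acidic protein, the values were 1.91 and 0.94. Cel, the gene of bile salt-stimulated lipase, gave 0.92 and 0.71. These were the 3 higher milk genes of DOX. Over basal-like nuclei alone Lalba was at 0.73 in EtOH and 0.58 in DOX, and Cel at 0.51 and 0.67. The luminal progenitor list of the study, which came from RNA-seq of sorted cells and not from these libraries, holds all 5 marker genes of the rule. Without them, 28 of its 195 measured genes were higher in the EtOH class and 1 of 195 in the DOX class, the latter a share near that of all genes.

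Most of these differences were against hormone-sensing luminal-like nuclei. Of the same 195 genes, 45 were higher in the EtOH class than in hormone-sensing luminal-like nuclei (background 9.87%) and 1 than in basal-like nuclei (1.13%). In DOX 12 of 194 were higher than in hormone-sensing luminal-like nuclei (2.87%) and 1 of 195 than in basal-like nuclei (0.389%). The luminal mature list of the study, without rule genes, had 47 of 290 genes lower in the EtOH class than in hormone-sensing luminal-like nuclei (9.63%) and 14 of 287 in DOX (4.6%). Against basal-like nuclei 5 of 287 were lower in EtOH (2.87%) and 2 of 286 in DOX (1.77%). Within the cluster of the EtOH members, the 16 further luminal progenitor genes had a median log2 ratio of members over the other 603 non-immune nuclei of 0.02, and 0 of the 16 were 1.5-fold higher. Within the DOX cluster, over 864 other non-immune nuclei, the median was 0.05 and again 0 were higher. Of the 195 genes of the study list 1 was higher than in the rest of the cluster in EtOH and 0 in DOX. Over all genes 51 of 17204 were higher in EtOH and 45 of 17237 in DOX, so so few calls cannot show whether lineage genes differed within a cluster. Of the 195 genes 120 were above 0 in EtOH and 133 in DOX, against 9575 and 9112 of all genes. Their medians were 0.02 and 0.04, where all genes had 0.01 and 0.006. Members shared their clusters with nuclei of the other classes. "Luminal progenitor-like" stands here for the rule and not for a cell type that separated on its own.

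Over all genes, 95 (0.552%) were at least 1.5-fold higher in both libraries in the class than in the other epithelial classes summed. Lower in both were 404 (2.35%). The 5 marker genes were among the higher ones. Besides Lalba the 10 highest outside the rule included Apod, the gene of apolipoprotein D, at 0.95 in DOX and 1.29 in EtOH, the secretoglobin gene Scgb2b27 (0.92 and 1.90), the cytochrome P450 genes Cyp2d34 (0.80 and 2.01) and Cyp2d10 (0.75 and 1.83), and the sulfotransferase gene Sult1c1 (0.73 and 1.63). The others were Vmn2r93, Dnd1, Spata21 and Nat8f2. Over basal-like nuclei alone these 10 genes did not reach 1.5-fold in both libraries. Apod was at 0.82 in DOX and 0.43 in EtOH, Scgb2b27 at 0.65 and 0.57, Cyp2d10 at 0.41 and 0.37 and Sult1c1 at 0.40 and 0.35. Cyp2d34 and Cyp2d10 belong to a cluster of near-identical genes, so that reads between them may have been split or lost. The counts fell to 28 higher and 218 lower genes when every nucleus was thinned to 20000 counts before scoring, and to 7 and 11 against other nuclei of the same cluster, an alternative added after the data were seen.

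Markers of other lineages were read within each gene, since the CPM of a gene grows with its length and number of regions. The immune genes of the rule Tyrobp, C1qa and C1qb took 0.78, 0.50 and 0.75 CPM in DOX members and 0.31, 0.23 and 0.39 in EtOH members, against 36.2 to 61.6 CPM in the nuclei at or above the immune limit. Adgre1 took 1.93 and 2.29 CPM in members, Ptprc 9.28 and 6.93, and Csf1r 10.4 and 12.3, against 40.6 to 138 CPM in the immune nuclei. A low immune score was part of the choice of the members. Of the 8 further immune genes Cd79a had no shared region, and the others ranged from Lyz2 (1.57 CPM in DOX, 0.93 in EtOH) to Spi1 (55.0 and 55.6). Of the 6 fibroblast genes Lum had no shared region, Col1a2, Dcn and Col3a1 took between 1.07 and 3.23 CPM, and Pdgfra (58.6 and 59.8) and Fbln1 (66.1 and 46.8) took more. Of the 6 endothelial genes Tie1 had no shared region, and the others ranged from Cdh5 (3.96 and 2.42) to Pecam1 (83.0 and 101). The 6 adipocyte, pericyte and glial genes took between 4.57 and 33.5 CPM. The part of other cell types in these levels was not tested.

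The class was then compared between the libraries. Of 119179 shared regions with at least 100 counts in the class, 9922 (8.33%) were at least 2-fold higher in DOX and 10268 (8.62%) at least 2-fold lower. The median log2 ratio was -0.07. Within 1 kb of a transcription start site 3.66% were higher and 3.83% lower, and elsewhere 9.75% and 10.1%. In hormone-sensing luminal-like nuclei 7.66% of regions were higher and 7.66% lower, and in basal-like nuclei 6.65% and 5.62%. Depth differed between these classes and the differences between their shares were not tested.

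The highest ratio lay in an intergenic region 213258 bases from 1810046K07Rik, with 266 counts from 97 of 358 DOX members (27.1%) and 3 counts from 2 of 868 EtOH members (0.23%). Its log2 ratio was 7.59 (5.68 to 13.49), and it was also higher in DOX in basal-like nuclei (4.03) and hormone-sensing luminal-like nuclei (1.79). The region nearest Ly6l had 298 counts in DOX and 8 in EtOH (6.34, 4.96 to 8.24). In the region nearest St3gal1, 202 DOX members (56.4%) and 11 EtOH members (1.27%) had a count, with 686 and 24 counts in all (5.96, 5.14 to 6.93). The fourth lay over an exon of C130073F10Rik (5.57) and the fifth nearest Phyhipl (5.39). The GATA motif was in the central 300 bases of 4 of these 5 regions, and the region nearest St3gal1 held none.

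The lowest ratio lay in an intron of Sh3kbp1, with 3 counts in DOX and 324 in EtOH, from 2 DOX and 129 EtOH members (-5.63, -11.53 to -3.72). It was followed by the region over an exon of Vps13d, with 3 and 259 counts (-5.31, -11.20 to -3.38), and the region nearest Tmc1, with 6 and 453 counts (-5.11, -7.40 to -3.55). The region nearest Nox3 was at -4.91 and that nearest Selenop at -4.86. All 5 were also lower in DOX in basal-like and hormone-sensing luminal-like nuclei, with 1 to 16 DOX counts per region and class. In immune nuclei, which held 102 to 434 DOX counts per region, the direction differed. There the regions at Sh3kbp1 (2.80), Tmc1 (1.31) and Nox3 (1.38) were higher in DOX, and those at Vps13d and Selenop stood at -0.27 and -0.31. None of the 5 held the GATA motif, and the sequences shown for the first 3 carry no capitals.

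The GATA motif separated higher from lower regions across the class. It was present in 11.95% of all regions compared, in 29.7% of those at least 2-fold higher in DOX (2946 of 9922) and in 7.96% of those at least 2-fold lower (817 of 10268). Of the 14246 regions with the motif 20.7% were 2-fold higher and 5.73% lower, and their median log2 ratio exceeded that of all regions by 0.23. The ratio grew with the number of motifs. Its median was -0.09 in 104933 regions with 0 sites, 0.14 in 13117 with 1, 0.48 in 1041 with 2 and 0.89 in 88 with 3 or more, and the share at least 2-fold higher went from 6.65% to 19.5, 33.9 and 46.6%. In regions of low, middle and high GC content, GATA regions exceeded the others by 0.32, 0.31 and 0.19.

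The values were smaller in hormone-sensing luminal-like nuclei. There, GATA regions exceeded all regions by 0.02, and the median was 0.13 in 130 regions with 3 or more sites. This class held an unlike mix of clusters in the libraries. Of its 251 DOX nuclei 102 lay in the cluster of the DOX members, and 63 and 69 in clusters that held 347 and 391 of its 817 EtOH nuclei. The part of this mix was not tested. In basal-like nuclei the excess was 0.23, with a median of 0.77 in 81 regions with 3 or more sites, and 210 of their 332 EtOH nuclei lay in the cluster of the EtOH members. The difference between classes was not tested, since each has 1 library per group.

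In single nuclei, GATA regions took a median of 9.02% of the counts of a DOX member (5th to 95th percentile 7.40 to 10.0%) and 7.13% of those of an EtOH member (6.38 to 8.06%). In hormone-sensing luminal-like nuclei the medians were 9.64% in DOX and 9.49% in EtOH, and in basal-like nuclei 9.29% and 7.45%. Immune nuclei had medians of 7.22% in DOX and 6.93% in EtOH. DOX nuclei with no leading epithelial score had a median of 9.19%. The median DOX member was thus closer to the medians of all other DOX epithelial nuclei than to that of the EtOH members. Among those medians the hormone-sensing luminal-like one lay furthest from it. The 22 DOX members in the cluster of the EtOH members had a median of 7.43% (quartiles 7.20 to 7.64%), and the 325 in the DOX cluster 9.08% (8.75 to 9.47%). The clusters had been formed on these same regions, so this split is a description.

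**Figure D3:**
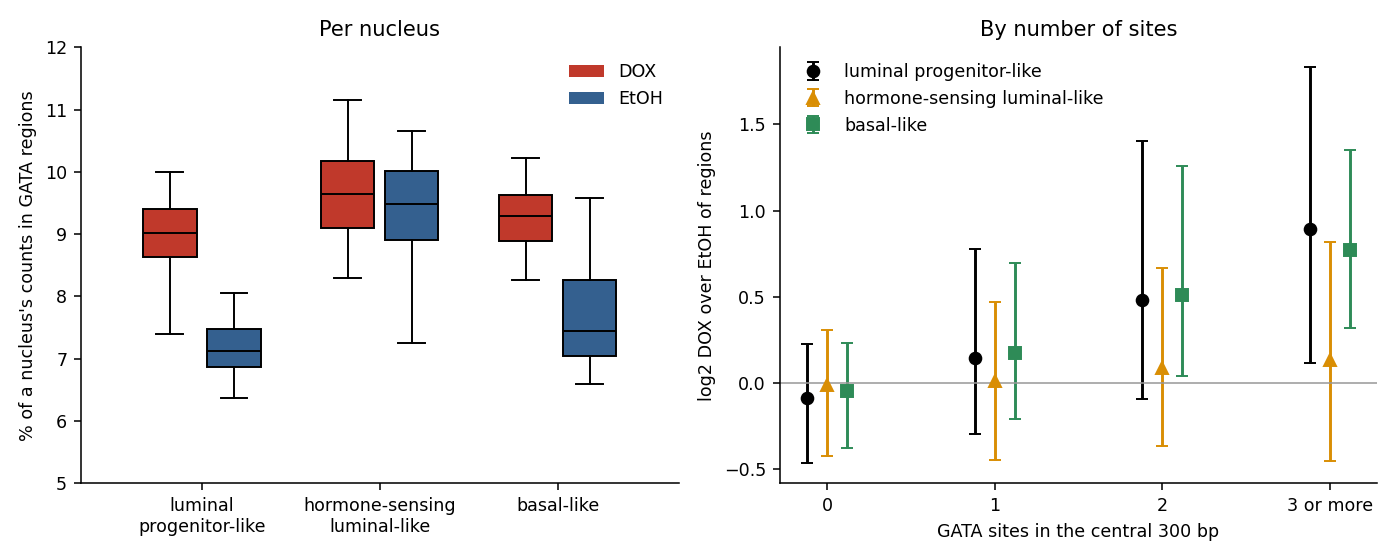
Left, the % of the counts of a nucleus in regions with a GATA motif, by class and library, as boxes of the median and quartiles with whiskers from the 5th to the 95th percentile (axis from 5%). Right, the log2 ratio of DOX over EtOH of regions by the number of GATA motifs in their central 300 bp, as medians with quartiles, which went from -0.09 with 0 to 0.89 with 3 or more motifs in the luminal progenitor-like class.

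Among the other 16 motifs the excess over all regions was 0.17 for RUNX (TGTGGTT), 0.17 for NFI (TTGGC and GCCAA with 5 bases between, in 145 regions only) and 0.11 for AP-1 (TGANTCA). It was lowest for the progesterone receptor motif (-0.11) and FOX (TGTTTAC, -0.10), and -0.04 each for ELF (AGGAAG), SOX (ACAAAG) and CArG, the SRF site. ELF was present in 40.7% of all regions compared, in 38.2% of those at least 2-fold higher and in 48.9% of those at least 2-fold lower. SOX was present in 27.0%, 31.1% and 35.0%. The remaining 8 lay between -0.06 (CTCF) and 0.06 (TEAD, ACATTCC). They included ETS (CCGGAAG), STAT (TTCNNNGAA), p63 (CATG and CATG with 6 bases between), GRHL (AACCNGTT), CEBP (TTGCNNAA) and NFkB. All were searched on both strands, and AGGAAG and CCGGAAG share bases.

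GATA regions that held a further motif differed among themselves. Regions with both GATA and RUNX had a median log2 ratio of 0.53 (1560 regions, 34.7% at least 2-fold higher). The median was 0.13 with GATA alone, 0.06 with RUNX alone and -0.10 with neither. With GATA and AP-1 together the median was 0.46 (2879 regions), against 0.11 with GATA alone, 0.01 with AP-1 alone and -0.10 with neither. With ELF the GATA median was 0.16, and without it 0.17.

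AP-1 regions took 15.4% of the counts of the median DOX member and 14.0% of the median EtOH member, but 18.8% and 22.3% in hormone-sensing luminal-like nuclei. The AP-1 excess in that class was -0.21, of the opposite sign to the luminal progenitor-like class. The hormone-sensing class held an unlike mix of clusters in the libraries, as given above, and the part of this mix was not tested. RUNX regions took 8.29% in DOX and 7.12% in EtOH members. FOX regions, which took 5.80% of the counts of EtOH hormone-sensing nuclei, took 3.82% and 4.00% in the class.

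**Figure D4:**
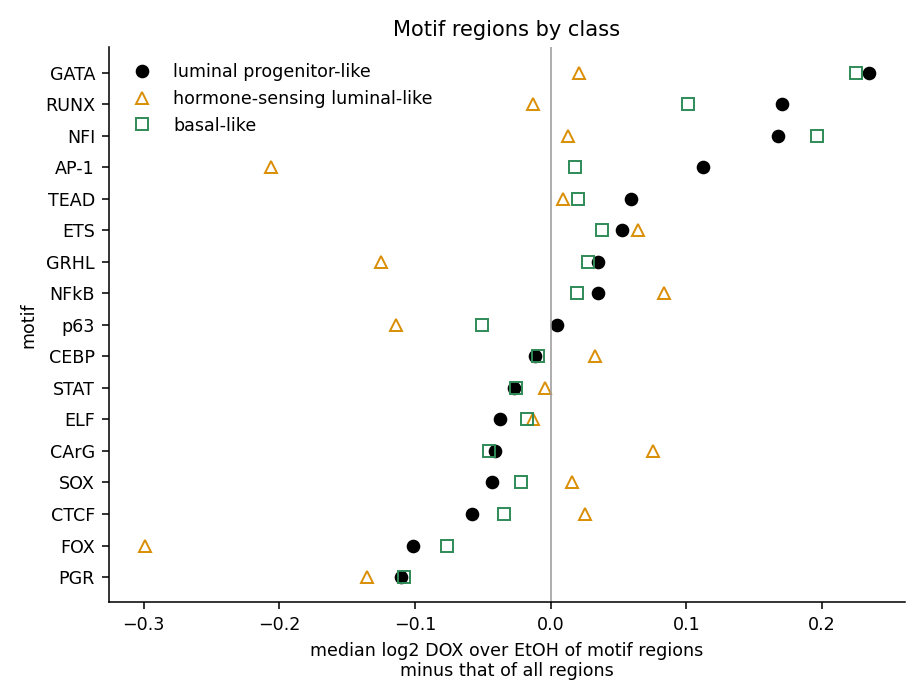
For 17 motifs (rows), the median log2 ratio of DOX over EtOH of regions with the motif minus that of all regions (x axis), in luminal progenitor-like (filled circles), hormone-sensing luminal-like (triangles) and basal-like nuclei (squares). Of the 17 motifs GATA had the highest value in the luminal progenitor-like class, 0.23, and stood at 0.02 in hormone-sensing luminal-like nuclei.

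Of the marker genes, Kit differed most between the DOX and EtOH members. It took 28.3 CPM in DOX and 44.9 CPM in EtOH (log2 ratio -0.66, -0.83 to -0.50), and supplied 11.96% of the marker counts of the class in DOX against 18.6% in EtOH. Most of the difference lay at its start, in a region (chromosome 5, 75574488 to 75575390) that includes the sequence shown above. This region took 13.3 CPM in DOX and 26.1 in EtOH (-0.97, -1.21 to -0.74). The 5 other Kit regions had log2 ratios from -0.57 to -0.26, each with an interval that included 0. With Kit left out of the rule its ratio was -0.86 (-1.05 to -0.67).

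The other markers were close to even when they chose the members, with log2 ratios of 0.01 for Elf5, -0.15 for Csn3, 0.08 for Aldh1a3 and 0.07 for Wfdc18. When the gene was left out of the rule, the ratio was -0.19 for Elf5 (-0.33 to -0.05), -0.37 for Csn3 (-0.52 to -0.21), -0.25 for Aldh1a3 (-0.41 to -0.10) and -0.09 for Wfdc18 (-0.25 to 0.06). Each of the 5 markers was thus lower in DOX in a class chosen without it, the last within its counting interval. The same held for basal-like nuclei found without the gene. There Kit took 16.5 CPM in DOX and 27.4 in EtOH, Elf5 35.3 and 42.4, and Csn3 27.9 and 35.9. Aldh1a3 took 31.1 and 33.5 and Wfdc18 24.7 and 28.7. In hormone-sensing luminal-like nuclei Kit, Csn3 and Wfdc18 were higher in DOX. The difference between the classes was not tested.

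Regions of Elf5 differed in direction. A region 24812 bases from its first annotated start (chromosome 2, 103436063 to 103436937) took 3.64 CPM in DOX and 7.29 in EtOH (-1.002, -1.47 to -0.55), and another at 30002 bases took 4.00 and 6.42 (-0.68, -1.14 to -0.25). A region at 13133 bases was higher in DOX, with 9.49 and 6.27 CPM (0.60, 0.27 to 0.93), as was one at 28161 bases (0.47, 0.07 to 0.85). The region that holds the sequence shown above, at another start of the gene, with 15.6 and 14.9 CPM, was at 0.06 (-0.18 to 0.29). In Csn3 a region 7257 bases from the start was lower in DOX, with 6.92 and 11.2 CPM (-0.69, -1.03 to -0.36), while the region over the start was at 0.14 (-0.07 to 0.34). The Wfdc18 region that includes the sequence shown took 50.6 CPM in DOX and 48.3 in EtOH (0.07, -0.06 to 0.20).

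Hormone-sensing genes of the rule had ratios above 0, while the 12 further genes of that lineage had a median of -0.03, with 5 above 0. Foxa1, the pioneer factor of that lineage, took 22.6 CPM in DOX members and 13.3 in EtOH members (log2 ratio 0.76), Tnfsf11, the gene of the progesterone-induced signal RANKL, 15.9 and 10.9, and Esr1, the oestrogen receptor gene, 65.8 and 52.2. All 6 genes of the rule list were above 0, with a median of 0.23, and Foxa1 alone passed 1.5-fold. The basal genes of the rule had a median of 0.06, and 0 of 6 passed 1.5-fold. Low scores on both lists were part of the choice of the members, so these values are a description.

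Across 17184 protein-coding genes, 576 (3.35%) were at least 1.5-fold higher in DOX members and 499 (2.9%) at least 1.5-fold lower. Of the 16 further luminal progenitor genes, 2 were higher and 0 lower. Ltf took 10.7 CPM in DOX and 3.44 in EtOH (1.63, 1.26 to 2.003), and Tspan8, the gene of a tetraspanin, 52.9 and 29.5 (0.84, 0.70 to 0.98). Short of the threshold were Itga2, the integrin alpha 2 gene, with 62.6 and 93.1 CPM (-0.57, -0.68 to -0.46), Slpi, a secreted protease inhibitor gene (0.40), and Lcn2 (-0.33). The ETS gene Ehf (0.01), Cd14 (0.05) and the Notch target Hey1 (-0.03) had intervals that included 0. The list median was 0.02, where the median of all genes was -0.02.

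Milk genes differed mainly in 1 direction, with 3 of 12 at least 1.5-fold lower in DOX (background 2.9%) and 0 higher (3.35%). Csn2 and Glycam1 had no shared region. Lalba took 12.2 CPM in DOX and 32.8 in EtOH (-1.43, -1.68 to -1.20), and Wap 3.14 and 6.24 (-0.99, -1.49 to -0.51). Csn1s1, an alpha-casein gene, was at 1.18 and 1.88 CPM with an interval that included 0 (-0.68, -1.61 to 0.11). Stat5b, the gene of a prolactin-activated factor, took 76.6 and 95.8 CPM (-0.32, -0.43 to -0.22), while Stat5a was at 0.08. Olah, the thioesterase gene of milk fat synthesis, took 24.7 and 17.5 CPM (0.50, 0.30 to 0.70). The list median was -0.22. In promoters, of which 3.06% of 15610 were higher and 3.06% lower, 4 of 11 milk genes were lower and 0 higher. Over whole genes in basal-like nuclei 2 of 10 milk genes were lower in DOX (background 1.85%) and 0 higher, with Lalba at -1.28 (-1.60 to -0.96). In hormone-sensing luminal-like nuclei 1 of 10 was higher (4.35%) and 0 lower, with Lalba at 0.26 (-0.27 to 0.79).

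**Figure D5:**
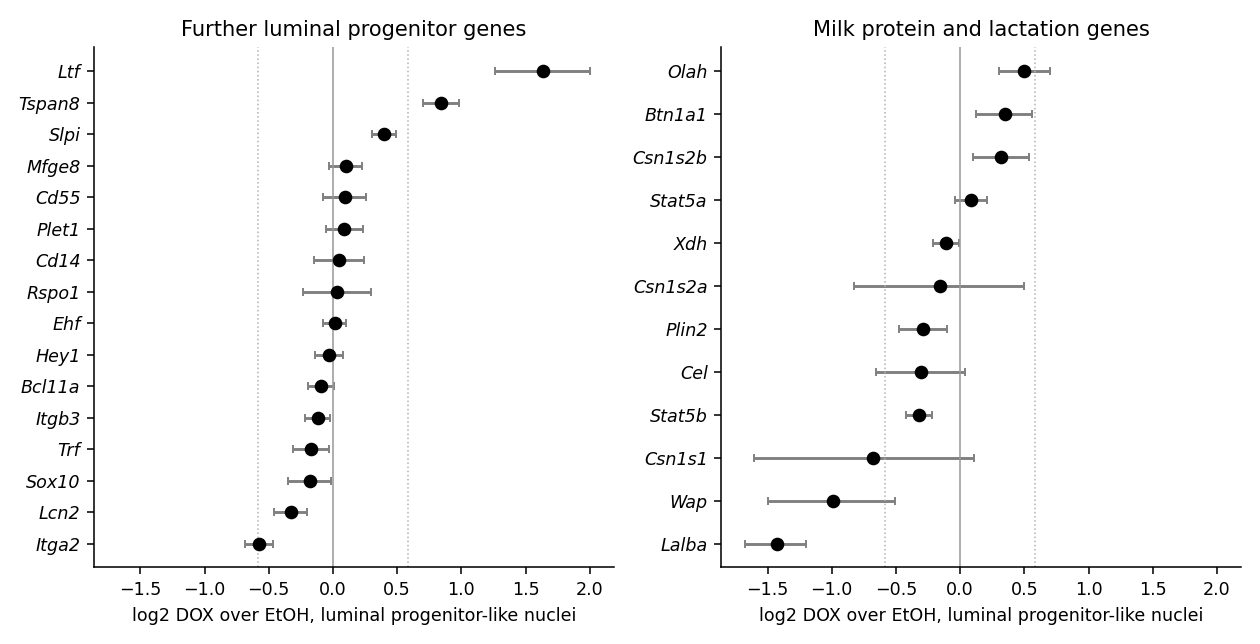
Log2 ratio of DOX over EtOH luminal progenitor-like nuclei (x axis) for the further luminal progenitor genes (left) and the milk genes (right) with enough counts. Points carry exact 95% counting intervals and dotted lines mark 1.5-fold, which Ltf (1.63) and Tspan8 (0.84) exceeded to the right and Lalba (-1.43), Wap (-0.99) and Csn1s1 (-0.68) to the left.

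Among 14 further basal genes 3 were higher and 0 lower, where 3.35% and 2.9% of all genes were. Krt5, a basal keratin gene, took 6.42 CPM in DOX and 2.85 in EtOH (1.17, 0.73 to 1.61), Vim, the vimentin gene, 48.3 and 25.8 (0.90, 0.75 to 1.05), and Jag2, a Notch ligand gene, 21.4 and 14.1 (0.60, 0.38 to 0.82). Vim was also higher in DOX in hormone-sensing luminal-like (0.82) and basal-like nuclei (0.56). Of 8 genes of all mammary epithelium 1 was higher, the tight junction gene Cldn4, with 43.8 and 18.2 CPM (1.27, 1.10 to 1.44). The luminal keratin genes Krt8 (0.03) and Krt18 (0.35) did not pass. In the hormone-sensing list 1 of 12 was higher and 0 lower, the surface antigen gene Ly6a (3.28 and 2.05 CPM, 0.68). Single genes of lists of 8 and 12 cannot be told from the share of all genes. Ly6a was lower in DOX in hormone-sensing luminal-like nuclei, where 4.35% of genes were higher and 2.58% lower, and in basal-like nuclei, where 2.71% were higher and 1.85% lower. The Wnt4 promoter, at the gene of a progesterone-induced Wnt ligand, had a log2 ratio of 1.22, against 0.34 over the whole gene.

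Genes of the factors that bind these motifs were compared next. Gata3 took 115 CPM in DOX and 117 in EtOH (-0.02, -0.11 to 0.06), and 0 of 6 GATA family genes passed 1.5-fold in either direction over the whole gene. Over promoters 1 of 6 was lower, Gata4 at -0.66 (-1.04 to -0.31). Trps1 took 183 and 161 CPM (0.18, 0.11 to 0.25), with 0.48 over its promoter. The shRNA acts on RNA, so these values do not measure the knockdown. Of 10 epithelial ETS factor genes and 12 genes of the Notch pathway, 0 passed in either direction, with list medians of -0.02 and -0.01. Among SRF/MRTF targets, the group named in the title of the study, 1 of 20 was higher, Fhl2, with 85.9 and 47.3 CPM (0.86, 0.75 to 0.97), and 0 were lower. Among YAP targets 1 of 20 was higher, Ankrd1, with 15.3 and 8.30 CPM (0.88, 0.61 to 1.15), and 0 were lower. Of all genes 3.35% were higher and 2.9% lower, and 1 gene of 20 cannot be told from that share. Of the immune, fibroblast and endothelial lists 1 gene each passed, Lyz2 at 1.57 and 0.93 CPM, Dcn at 1.68 and 1.11 and Cdh5 at 3.96 and 2.42 CPM. The intervals of Lyz2 and Dcn included 0. No gene of the adipocyte, pericyte and glial list passed.

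Without the rule genes, the luminal progenitor list of the study had 1 of 195 genes at least 1.5-fold higher in DOX and 2 lower, and the luminal mature list 8 of 287 higher and 2 lower. Both shares were near or below those of all genes. The list medians were -0.04 and 0.03.

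The most extreme ratios lay at 20 genes with 1 to 7 regions each. Highest was Myo1f, a myosin gene best known from leukocytes, with 18.8 CPM in DOX and 3.03 in EtOH (2.64, 2.30 to 3.00). It was followed by the desaturase gene Scd4 (2.15), Dpysl4 (2.13), Jhy (1.99) and Pate1 (1.96), and then by 4930578I06Rik, Frmd3, Cntn4, Prss30 and Nlrp10 (1.90 to 1.70). Myo1f was higher in DOX in basal-like nuclei (2.21) and hormone-sensing luminal-like nuclei (1.45) too. At the other end stood the olfactory receptor gene Olfr1331, with 1.86 and 7.68 CPM in 1 region (-2.05, -2.69 to -1.46), and Rgr, an opsin gene, with 5.53 and 18.98 CPM in 1 region (-1.78, -2.15 to -1.44). They were followed by Mansc4 (-1.57), A2m (-1.56), the sulfotransferase gene Sult1d1 (-1.53), Hes2 (-1.47), Ptafr (-1.44), Lalba (-1.43), P2ry14 (-1.41) and Gnat2 (-1.33). These 10 genes were chosen by counts of the EtOH class, so their levels beside other EtOH classes are a description. All but Hes2 (0.21) and P2ry14 (-0.22) were at least 1.5-fold higher than in the other epithelial classes summed (5.97% of all genes were). Their log2 ratios went from 1.004 for Sult1d1 to 2.12 for Rgr. Over EtOH basal-like nuclei alone A2m (0.28), Gnat2 (0.21) and Mansc4 (0.49) fell below 1.5-fold, while Olfr1331, Rgr, Sult1d1, Ptafr and Lalba stayed above it (0.70 to 0.84).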

How the data were processed

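Single-cell ATAC-seq was carried out on 2 libraries, 1 per group, grouped by the labels. For each library the authors deposited raw counts of transposition events per peak and barcode. Per the file headers, Cell Ranger ATAC 2.0.0 was used and called cells and peaks in each library alone. The study's methods name another version. The build is mm10 per the labels. One account of the study gives wild-type mice for this experiment, and the labels were followed.

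Overlapping peaks (1 bp or more) were merged, and regions with a peak of both libraries were compared. Counts were summed over the nuclei of a class and scaled to counts per 1000000 counts in shared regions. Regions within the central 300 bp of which a motif lay counted as motif regions. Intervals (95%) are exact and use counts divided by 2, since both ends of a fragment are counted. Kept nuclei were clustered by TF-IDF, singular value decomposition (components 2 to 30) and the Leiden algorithm (15 neighbours, resolution 0.5). No doublet caller was run, and an alternative left out the deepest 5% of nuclei. Scripts used leidenalg 0.10.2, igraph 0.11.9, scikit-learn 1.9.0, scipy 1.17.1 and numpy 2.4.6 under Python 3.11.15 and were tested on simulated data.

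The libraries held 224762118 (DOX) and 211963715 (EtOH) counts, and 89.0% and 89.5% of their nuclei were kept. No test was possible with 1 library per group. Named were the genes of the lists, the 10 highest and 10 lowest gene ratios (at least 500 counts), the 10 genes highest in the class in both libraries, and the 5 highest and 5 lowest regions (at least 200 counts). Genes needed 100 counts. The members and lists were chosen with earlier results of these data known. The study's lists were counted without the genes of the rule, a choice made after the data were seen.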

Additional observations from a re-analysis of the deposited data

Results flagged for a closer look

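Of 162 genes of the lists compared in luminal progenitor-like and hormone-sensing luminal-like nuclei, and of 164 compared with basal-like nuclei, Ly6a alone differed by at least 1.5-fold between the libraries in opposite directions. Its log2 ratio of DOX over EtOH was 0.68 in the luminal progenitor-like class (0.11 to 1.27), -0.87 in hormone-sensing luminal-like nuclei (-1.19 to -0.55) and -0.60 in basal-like nuclei (-1.11 to -0.10). The difference between the classes was not tested. The gene took 3.28 CPM in DOX and 2.05 in EtOH members.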

How the results depend on the processing

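The DOX share of the class stayed below the EtOH share under all 12 alternative rules. The DOX share left its counting interval at a lead of 1.5 (7.25%), with scores from shared regions (11.7%), with scores relative to each library (15.7%) and without Elf5 (14.7%) or Wfdc18 (11.6%). The EtOH share did so at a lead of 1.5 (21.6%), after thinning (27.6%), relative to each library (26.7%) and without Kit (28.5%), Csn3 (28.5%) or Wfdc18 (28.5%). A count minimum of 200 left 5618 higher and 6562 lower regions, since fewer were compared. Under the other 15 alternatives there were 6793 to 11071 higher and 8829 to 11209 lower regions, and 445 to 677 higher and 399 to 548 lower genes under 16. Genes apart from the other epithelial classes in both libraries numbered 28 higher and 218 lower after thinning and 7 and 11 against nuclei of the same cluster. The GATA excess ranged from 0.22 to 0.32 and the ELF excess from -0.05 to -0.03. At a resolution of 1 the main cluster held 69.5% of the EtOH members. No paired analysis was possible because only 1 library was made for DOX and for EtOH. A member had a median of 17 counts on the 5 markers, which limits how firmly a single nucleus could be placed.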
